A study of Mus musculus with 6 samples.

Results

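The genes described here are genes of testosterone synthesis and of the Leydig cell, the endocrine cell that lies between the seminiferous tubules of the testis. The 10 genes, Star, Cyp11a1, Hsd3b1, Hsd3b6, Cyp17a1, Hsd17b3, Insl3, Lhcgr, Scarb1 and Fdx1, were chosen by symbol from a fixed list, and all 10 of 10 were found among the 24411 genes in the files and passed the filter on low counts. RNA was sequenced from whole testes of C57BL/6 mice, an inbred laboratory strain, in 3 libraries labelled MRP5-/- and MRP9-/- (DKO, for double knockout) and 3 labelled Wildtype (WT). The mice were matched for age, and neither the age nor the design of the alleles is given in the sources used here. MRP5 and MRP9 are ABCC-family membrane transporters encoded by Abcc5 and Abcc12.

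Leydig cells make testosterone from cholesterol when luteinizing hormone (LH) from the pituitary binds its receptor and raises cyclic AMP. Cholesterol is taken up, moved to the inner mitochondrial membrane, cut to pregnenolone there, and converted to testosterone by enzymes of the endoplasmic reticulum. The same cells secrete the peptide INSL3, which guides descent of the testis in the fetus.

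The libraries labelled DKO held 42673615 to 67131103 expected counts and those labelled WT 26753721 to 31745969, so depth did not overlap between the groups, and neither did mean fragment length (275 to 317 bases against 230 to 258). Depth, fragment length and genotype cannot be told apart by this design. Abcc12 was lower in libraries labelled DKO, at 79.0 ± 5.56 against 160 ± 3.93 CPM (counts scaled to library size; SD, n = 3 each), whereas Abcc5 was higher, at 16.8 ± 0.190 against 11.4 ± 0.898 CPM. In TPM the Abcc5 difference was smaller, 4.61 ± 0.200 against 3.66 ± 0.346 (SD, n = 3 each), and was not called (limma on log2(TPM + 1), adjusted p = 0.107). With an offset for effective length Abcc5 was still called higher (log2 fold change 0.38; edgeR adjusted p = 0.0333). The estimated mix of Abcc5 transcripts also differed, with a weighted length of 5485 ± 105 against 4943 ± 180 bases and no overlap. The RNA of Abcc5 was thus not lower in libraries labelled DKO. Because the design of the alleles is not given, what this means for the genotype was not tested. The groups are named by their labels throughout.

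Of the 10 genes, 3 fell in libraries labelled DKO: Star, Hsd3b6 and Insl3, to 58.2%, 47.0% and 46.2% of the WT mean. None rose. The call is an adjusted p under 0.05 in edgeR's quasi-likelihood test with Benjamini-Hochberg adjustment over all 17110 tested genes. By this rule 10.8% of all tested genes were called in either direction, 5.1% were called lower and 5.75% higher. The log2 fold change was below 0 for 9 of the 10 genes, with a median of -0.48 against 0.00 (-0.0042) over all tested genes. The remaining 7 genes did not pass the test, and their values are given below. These are whole-testis libraries, so fewer Leydig cells and less RNA per Leydig cell cannot be told apart.

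The calls were lost when some single libraries were left out, in fits that called few genes of any kind. No member was called without WT replicate 2 or without WT replicate 3. In these edgeR fits 0.0747% and 0.0402% of all genes were called. In each, 4 members had an unadjusted p under 0.05, as did 3793 of 17403 and 4326 of 17431 tested genes. With all libraries 6 members did, as did 5428 of 17110 tested genes. Without WT replicate 2 and without WT replicate 3 the log2 fold changes were -0.80 and -0.68 for Star, -0.89 and -1.07 for Hsd3b6 and -0.76 and -1.22 for Insl3. With all libraries they were -0.79, -1.09 and -1.12. Without DKO replicate 1 only Star was called, with 0.0643% of all genes. Without WT replicate 1, 6 of the 10 were called, with 11.7% of all genes. With mean fragment length as a covariate beside genotype no member was called (0.00584% of all genes). In that edgeR fit 2 members and 545 of 17110 tested genes had an unadjusted p under 0.05. Its log2 fold changes were -1.17 for Star, -0.17 for Hsd3b6 and -0.59 for Insl3.

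**Figure D1:**
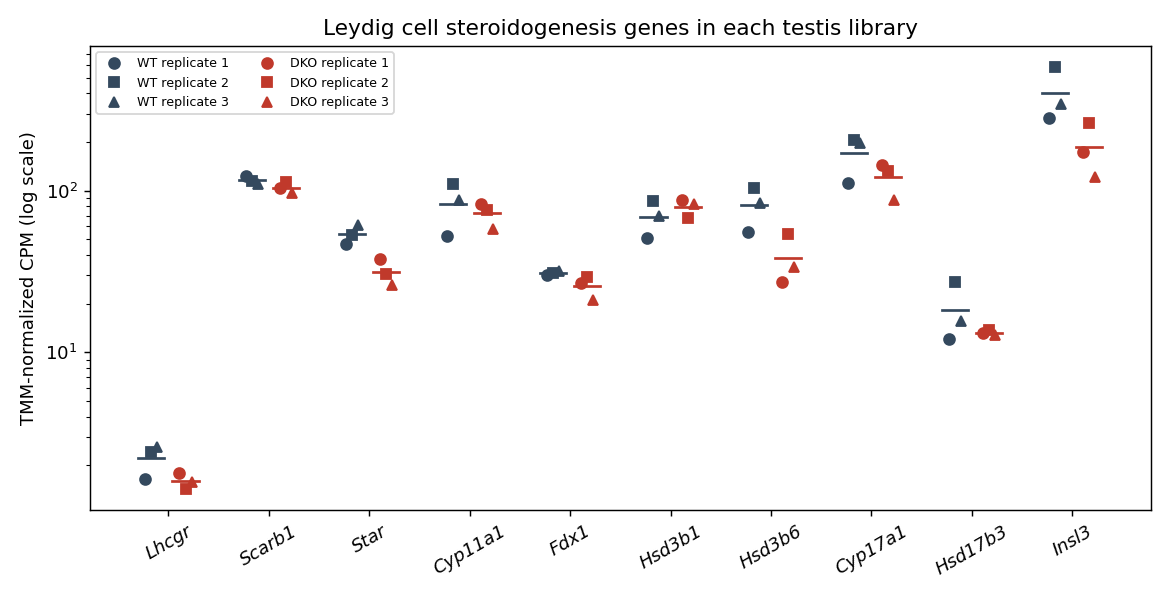
TMM-normalized CPM of the 10 genes (log axis) in each of the 6 libraries, 1 symbol per library, with bars at the group mean. The groups separate for Star, Hsd3b6, Insl3 and Fdx1, and WT replicate 2 (dark square) is the highest library for 5 genes.

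The 6 libraries differed among themselves as well as between groups. WT replicate 1 was the lowest WT library for 9 of the 10 genes, and the lowest of all 6 for 3 of them. WT replicate 2 was the highest of all 6 for 5 genes, and DKO replicate 3 the lowest of all 6 for 5. The summed CPM of the 10 genes was 698, 781 and 543 in libraries labelled DKO and 764, 1318 and 1004 in those labelled WT. The sum in WT replicate 1 therefore lay below that in DKO replicate 2, and the groups overlapped.

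In TPM, a scale that allows for gene length, Insl3 was the most abundant of the 10 in every library and Cyp17a1 the next. In libraries labelled WT the means were 1764 TPM for Insl3 and 164 TPM for Cyp17a1. Cyp11a1, Scarb1, Hsd3b6 and Hsd3b1 followed at 82.8 ± 31.8, 80.6 ± 4.36, 79.4 ± 26.5 and 64.8 ± 19.2 TPM (SD, n = 3), a group of neighbours whose order lies within their spread. Fdx1 had 46.2 ± 2.66 TPM, Hsd17b3 26.7 ± 12.4 TPM and Star 21.6 ± 3.26 TPM, the last pair again within their spread. Lhcgr was the least abundant in every library, at 1.45 ± 0.373 TPM in libraries labelled WT and 1.11, 0.87 and 1.03 TPM in the 3 labelled DKO. Insl3 alone made up 60.5% to 72.9% of the summed TPM of the 10 genes in libraries labelled DKO and 71.8% to 78.6% in those labelled WT.

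The receptor and the supply of cholesterol come first in the pathway. Lhcgr (chr17:88716384-88792059, mm10) encodes the LH receptor. It had 1.78, 1.43 and 1.58 CPM in libraries labelled DKO and 1.63, 2.42 and 2.59 CPM in those labelled WT, from only 43 to 107 counts per library. The groups overlapped through WT replicate 1, and the log2 fold change was -0.48 (SE 0.201; edgeR adjusted p = 0.126). Scarb1 (chr5:125277087-125341094) encodes the receptor that takes up cholesterol from high-density lipoprotein, and is also used by cells other than Leydig cells. Its CPM was 103, 113 and 96.7 in libraries labelled DKO and 123, 115 and 109 in those labelled WT, the smallest difference among the 10 genes on this scale (log2 fold change -0.15, SE 0.0791; edgeR adjusted p = 0.221). In TPM its groups did not overlap, at 67.8 to 73.5 against 75.6 to 83.8.

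Star (chr8:25808474-25815982) encodes the protein that moves cholesterol to the inner mitochondrial membrane, the step that LH controls most acutely. Its CPM was 37.6, 30.4 and 25.9 in libraries labelled DKO and 46.9, 53.5 and 61.1 in those labelled WT. Every library labelled DKO lay below every library labelled WT, and the group means were 31.3 ± 5.90 and 53.8 ± 7.10 CPM (SD, n = 3 each). Star fell by 0.79 on the log2 scale (SE 0.131; edgeR adjusted p = 0.0225). Leaving out WT replicate 2 gave -0.80 with an adjusted p of 0.0594, and leaving out WT replicate 3 gave -0.68 with 0.0993 (edgeR).

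The first enzyme step takes place in mitochondria. Cyp11a1 (chr9:57998024-58027031) encodes the side-chain cleavage enzyme that makes pregnenolone, and Fdx1 (chr9:51943023-51963602) encodes ferredoxin, which passes it electrons and serves other mitochondrial enzymes too. Cyp11a1 had 83.2, 76.4 and 57.7 CPM in libraries labelled DKO and 52.1, 110 and 87.8 CPM in those labelled WT. The lowest library was WT replicate 1, so the groups overlapped (log2 fold change -0.20, SE 0.214; edgeR adjusted p = 0.544, with a 95% interval from -0.67 to 0.26). Fdx1 had 26.7, 29.3 and 21.1 CPM in libraries labelled DKO and 29.9, 31.0 and 31.6 CPM in those labelled WT. These groups did not overlap, though the difference was small and did not pass the test (log2 fold change -0.27, SE 0.110; edgeR adjusted p = 0.124). In all, 4 of the 10 genes had no overlap between groups, each lower in libraries labelled DKO. Of all tested genes, 17.5% had no overlap in that direction and 35.9% in either direction, so the count is near the share in either direction.

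The next step, from pregnenolone to progesterone, is carried out by enzymes of the Hsd3b family, and the mouse testis uses a pair of them. Hsd3b6 (chr3:98805504-98814443) is known as the form of adult Leydig cells, while Hsd3b1 (chr3:98842356-98859794) is used in fetal and adult Leydig cells and in the adrenal gland. The genes are neighbours on the same chromosome. The 250 bases upstream of each start site are shown because the pair did not move alike. They are RefSeq sequences of GRCm38.p6, both on the minus strand, at chr3:98814444-98814693 for Hsd3b6 and chr3:98859795-98860044 for Hsd3b1, and capitals mark matches to AGATAA or TGATAA on either strand, the core of a GATA factor site.
Hsd3b6: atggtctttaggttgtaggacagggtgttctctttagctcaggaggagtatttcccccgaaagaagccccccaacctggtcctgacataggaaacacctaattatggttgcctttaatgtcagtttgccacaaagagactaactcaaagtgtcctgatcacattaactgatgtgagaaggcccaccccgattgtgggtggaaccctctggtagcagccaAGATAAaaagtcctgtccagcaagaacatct
Hsd3b1: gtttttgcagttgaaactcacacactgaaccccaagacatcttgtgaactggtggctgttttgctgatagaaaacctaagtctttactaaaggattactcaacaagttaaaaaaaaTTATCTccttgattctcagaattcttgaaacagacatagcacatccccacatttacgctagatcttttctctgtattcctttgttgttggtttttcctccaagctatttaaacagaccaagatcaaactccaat
Each window holds 1 such match, at a different distance from the start site. GATA cores were present in 18.6% of the 32851 RefSeq promoter windows of 300 bases (250 before to 50 after the start site). They were present in windows of 3 of the 7 listed genes that have one, the third being Fdx1. The core AAGGTCA or AAGGCCA, part of the site of the steroidogenic factor NR5A1, was in none of these 7 genes' windows and in 10.6% of all windows. The word TGACG, part of a cyclic AMP response element, was in 1 of them, Cyp11a1, and in 20.8% of all windows. These counts say only which letters the windows hold. Star, Cyp17a1 and Scarb1 had no window, so the counts do not cover them.

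Hsd3b6 had 27.2, 53.7 and 33.7 CPM in libraries labelled DKO and 55.8, 104 and 84.4 CPM in those labelled WT. The highest library labelled DKO lay just below the lowest labelled WT, and the means were 38.2 ± 13.8 and 81.4 ± 24.2 CPM (SD, n = 3 each). Hsd3b6 fell by 1.09 on the log2 scale (SE 0.242; edgeR adjusted p = 0.0292). Leaving out DKO replicate 1, WT replicate 2 or WT replicate 3 gave log2 fold changes of -0.92, -0.89 and -1.07, with edgeR adjusted p of 0.129, 0.0968 and 0.101.

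Hsd3b1, in contrast, had 88.0, 67.8 and 83.0 CPM in libraries labelled DKO and 50.8, 86.1 and 69.3 CPM in those labelled WT. The groups overlapped, and it was the only one of the 10 genes with a log2 fold change above 0 (0.21, SE 0.158; edgeR adjusted p = 0.384). The ratio of Hsd3b6 to Hsd3b1 in CPM was 0.309, 0.792 and 0.406 in libraries labelled DKO and 1.10, 1.21 and 1.22 in those labelled WT. Hsd3b6 thus exceeded Hsd3b1 in each WT library and was below it in each DKO library. The mean log2 ratio was -1.11 ± 0.699 against 0.23 ± 0.0818 (SD, n = 3 each; two-sided exact permutation p = 0.1, which is the lowest p possible with 3 libraries a group). This ratio was chosen after its values were seen. The summed CPM of the pair was 115, 122 and 117 in libraries labelled DKO and 107, 190 and 154 in those labelled WT, and overlapped. The expected counts of both genes were whole numbers in all 6 libraries.

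Cyp17a1 (chr19:46667165-46673000) encodes the enzyme that turns progesterone into androstenedione, and Hsd17b3 (chr13:64058274-64089262) the one that reduces androstenedione to testosterone. Cyp17a1 had 144, 132 and 87.9 CPM in libraries labelled DKO and 112, 207 and 197 CPM in those labelled WT. WT replicate 1 lay among the libraries labelled DKO (log2 fold change -0.50, SE 0.216; edgeR adjusted p = 0.135). Hsd17b3 had 13.2, 13.7 and 12.8 CPM in libraries labelled DKO and 12.1, 27.0 and 15.6 CPM in those labelled WT. The libraries labelled DKO were within 1.07-fold of one another and those labelled WT spread over 2.23-fold (log2 fold change -0.48, SE 0.219; edgeR adjusted p = 0.160). Without WT replicate 2 the Hsd17b3 difference was -0.08.

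Insl3 (chr8:71689252-71690577) had 173, 263 and 122 CPM in libraries labelled DKO and 281, 582 and 345 CPM in those labelled WT. No library overlapped, although each group spread over more than 2-fold (2.15-fold and 2.07-fold). The means were 186 ± 71.3 and 403 ± 159 CPM (SD, n = 3 each), and Insl3 fell by 1.12 on the log2 scale (SE 0.278; edgeR adjusted p = 0.0358). The call was lost with an offset for effective length (log2 fold change -0.93; edgeR adjusted p = 0.0517) and with DESeq2 (log2 fold change -1.12; adjusted p = 0.0628). Leaving out DKO replicate 1, WT replicate 2 or WT replicate 3 gave -1.08, -0.76 and -1.22, with edgeR adjusted p of 0.153, 0.119 and 0.101. The transcript of Insl3 has 587 bases. Insl3 overlaps Jak3 in position, and its expected counts carried fractions in all 6 libraries, as arises where fragments are shared. Jak3 held expected counts equal to 4.45% to 10.4% of those of Insl3 in libraries labelled DKO and 2.36% to 4.18% in those labelled WT. These shares are taken over Insl3, which was itself lower in libraries labelled DKO, so they do not measure how many fragments were shared.

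**Figure D2:**
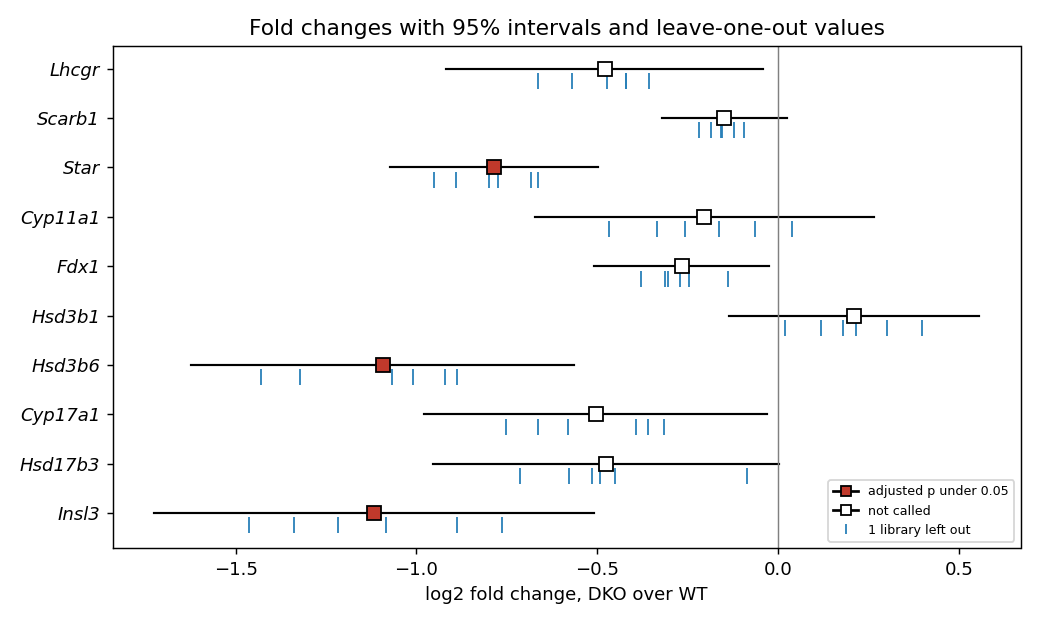
Log2 fold change, DKO over WT, of each gene (squares; filled where adjusted p is under 0.05) with its 95% interval (line) and the 6 values with 1 library left out (ticks). Star, Hsd3b6 and Insl3 stay below 0 in all 6 such fits, while Cyp11a1 reaches 0.04 without WT replicate 2. For Star, Hsd3b6 and Insl3 every library labelled DKO lay below every one labelled WT, so leaving 1 out could hardly turn the sign.

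Whether the genes shifted by a common amount was examined within each library. In each library, the log2 CPM of a gene was set against the mean of the other 9. By this measure Hsd3b6 was lower in libraries labelled DKO by -0.71, with -0.64, 0.38 and 0.00 (0.0033) against 0.47, 0.74 and 0.66. Hsd3b1 was higher by 0.78 and Cyp11a1 by 0.35. Hsd3b6, Hsd3b1 and Cyp11a1 had no overlap between groups (two-sided exact permutation p = 0.1 for each, n = 3 each, the lowest the design can give). Insl3 (-0.72) and Star (-0.36) were lower relative to the others with overlap between groups (exact permutation p = 0.2 for each). Scarb1 (0.35) and Fdx1 (0.21) were higher relative to the others, also with overlap (exact permutation p = 0.4 for each). Cyp17a1 (-0.02), Lhcgr (0.02) and Hsd17b3 (0.09) differed by less than the SD between libraries of a group.

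**Figure D3:**
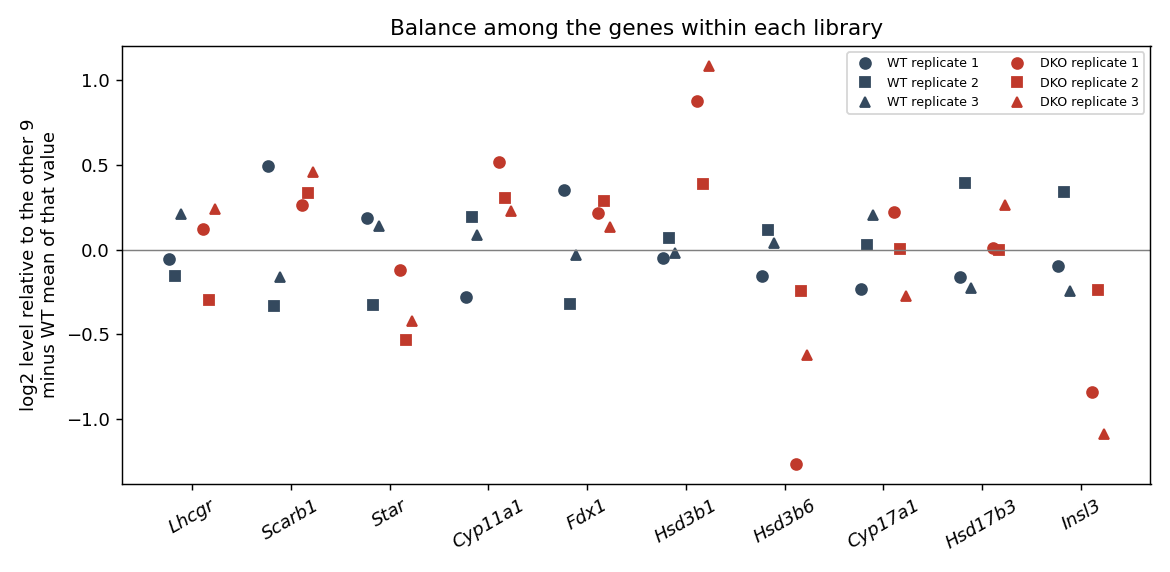
Log2 CPM of each gene relative to the mean of the other 9 in the same library, minus the WT mean of that value (y axis), for the 6 libraries (symbols). Hsd3b6 sits lower and Hsd3b1 and Cyp11a1 higher in all 3 libraries labelled DKO, with no overlap, though the gap for Cyp11a1 is narrow.

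Other genes known from adult Leydig cells were examined next. Of 10 such markers 1 was called, against 10.8% of all tested genes, so the count is near the background. The called gene was Fabp3, a fatty acid binding protein. It had 42.3, 70.9 and 52.3 CPM in libraries labelled DKO and 76.6, 164 and 101 CPM in those labelled WT, and fell by 1.05 on the log2 scale (SE 0.242; edgeR adjusted p = 0.0320). The median of the list was -0.47, and 9 of 10 log2 fold changes were below 0. The kallikrein Klk1b21 had 6.77 to 12.4 CPM in libraries labelled DKO, and 6.98, 29.2 and 14.7 CPM in those labelled WT. WT replicate 2 was again the highest library and WT replicate 1 the lowest labelled WT. Aldh1a1, a retinal dehydrogenase, differed little (log2 fold change -0.09).

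Other genes of the steroid pathway were called at near or below the share over all tested genes, 10.8%. Of 17 tested steroid enzymes and electron donors outside the 10 genes, 0 of 17 were called by edgeR, with 4 at an unadjusted p under 0.05, 1 called by DESeq2 and 0 by limma-voom. The median log2 fold change of that list was -0.09. Por, which passes electrons to CYP17A1, had 20.9, 20.7 and 22.7 CPM in libraries labelled DKO and 24.1, 29.2 and 24.8 CPM in those labelled WT, without overlap (log2 fold change -0.28; edgeR adjusted p = 0.0653). Of 14 genes that supply cholesterol to mitochondria, 1 was called: Atad3a, a protein of the inner mitochondrial membrane, which fell by 0.44 (edgeR adjusted p = 0.0307). Of 26 genes of LH signalling and steroidogenic transcription, 3 were called. Gnas, the stimulatory G protein subunit that couples the LH receptor to cyclic AMP, fell by 0.50, with 76.5, 82.0 and 74.4 CPM against 92.4, 123 and 113 CPM (edgeR adjusted p = 0.0259). Mef2d, a transcription factor, fell by 0.44, and Sp1, a general transcription factor, rose by 0.29. These lists hold genes that germ cells and other cells of the testis also express.

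Markers of other cells are given beside these results, and their part in them was not tested. Over all tested genes 5.1% were called lower and 5.75% higher, and with lists this short several of the counts are near that background. An unadjusted p under 0.05 in edgeR was found for 5428 of all 17110 tested genes. Of 13 Sertoli markers 4 were called, all lower (Rhox5, Dhh, Cldn11 and Trf), with a list median of -0.21. Of 10 peritubular myoid and endothelial markers 1 was called, Tagln, lower, and the summed CPM of this list did not overlap (152 to 170 labelled DKO, 174 to 218 labelled WT). Of 10 macrophage markers 0 of 10 were called by edgeR (4 at an unadjusted p under 0.05, 1 called by DESeq2, 0 by limma-voom), with a summed CPM of 88.6 to 97.6 against 83.3 to 122. Of 8 spermatocyte markers 2 were called, both higher (Sycp3 and Hormad1), with a list median of 0.32. Of 10 spermatid markers 1 was called, Akap4, higher. The spermatid list median was -0.01, with 5 log2 fold changes below 0 and 5 above. Of 7 tested spermatogonia markers 0 of 7 were called by edgeR, DESeq2 or limma-voom, and 0 had an unadjusted p under 0.05 in edgeR. Of 6 markers of adrenal-like cells, which can also make steroids in the testis, 4 were too low to be tested, and Mc2r, the corticotropin receptor, was at most 0.0323 CPM in any library. The other 2 were present at about the CPM of Lhcgr and were not called. Cyp21a1, a steroid hydroxylase of the adrenal cortex, had 1.48 to 2.16 CPM in libraries labelled DKO and 1.29 to 2.24 CPM in those labelled WT. Mrap, an accessory protein of the corticotropin receptor, had 1.93 to 2.15 CPM and 2.50 to 3.10 CPM, without overlap (log2 fold change -0.47; edgeR adjusted p = 0.0652). None of the 13 genes called in these 11 other lists stayed called without DKO replicate 1, without WT replicate 2 or without WT replicate 3.

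**Figure D4:**
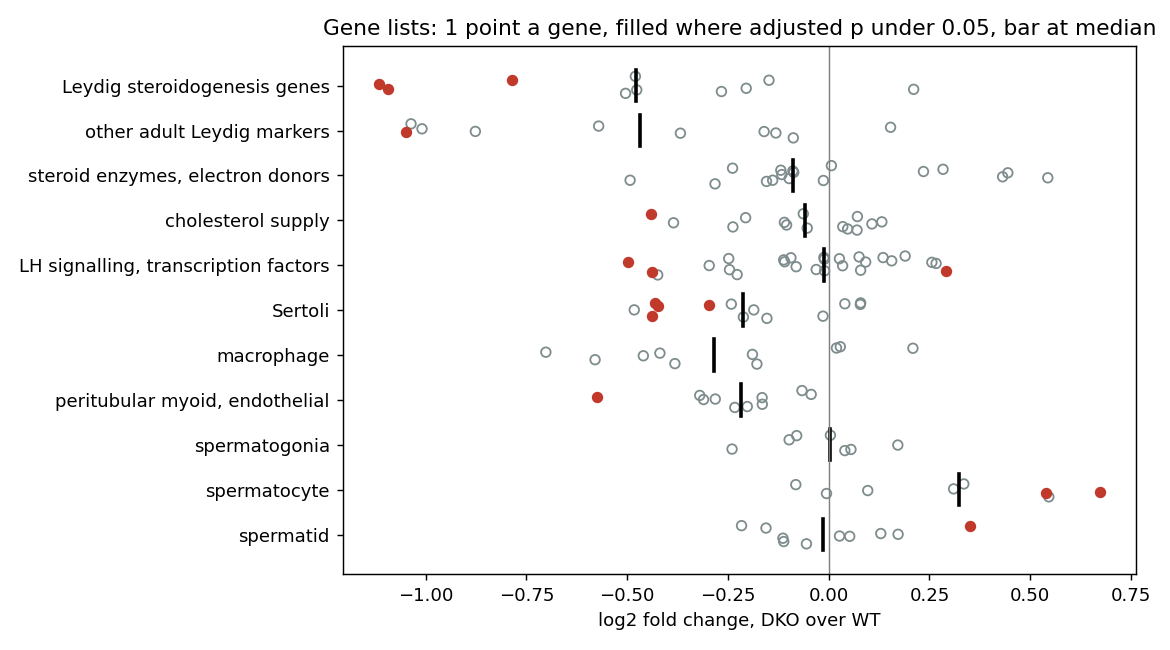
Log2 fold change, DKO over WT, of every tested gene (points; filled where adjusted p is under 0.05) in the 10 Leydig genes and in 10 other gene lists, with a bar at each median. The medians of the 10 genes (-0.48) and of the other Leydig markers (-0.47) lie farthest below 0.

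The genes most like the 10 were taken as those whose log2 CPM over the 6 libraries had the highest Pearson correlation with the mean standardized level of the 9 genes whose average log2 CPM reached 1, among 13717 candidates. They were Cited4, Trerf1, Lrr1, Snhg11, Kdelr1, Ptges2, Timp2 and Iglon5, with r from 0.978 to 0.992. With 6 libraries and so many candidates, such values describe these libraries only. Each of the 8 was lowest in DKO replicate 3 and highest in WT replicate 2, and none of the 8 was called. The mean level they were picked to match was itself lowest in DKO replicate 3 (-1.04) and highest in WT replicate 2 (1.12). That shared order, and the direction of their fold changes, therefore follow from the choice. Their log2 fold changes ran from -0.43 for Ptges2 to -0.17 for Kdelr1.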

How the data were processed

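RNA from whole testes was sequenced in 3 libraries labelled DKO and 3 labelled WT. The deposited files are, per the file headers, gene-level RSEM output with 1 file per library, holding expected counts, TPM and FPKM. The expected counts and TPM deposited by the authors were used, and the deposited FPKM values were not. STAR 2.7.0f, RSEM 1.2.31, DESeq2 1.12.3 and the build mm10 are named, per the submitters' processing notes. Strand handling and read filters are not given in the sources used here, so reads of overlapping genes may be mixed.

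Expected counts were rounded, filtered with filterByExpr, scaled by TMM and tested with edgeR 4.0.16 (glmQLFit and glmQLFTest, genotype only; Benjamini-Hochberg over 17110 genes). A standard error is the absolute log2 fold change divided by the square root of F. CPM are TMM-normalized. Mean fragment length was recovered from the gap between the length and effective length columns (its median, plus 1, in genes above 3000 bases). Single values were compared with an exact permutation test (SciPy 1.17.1). The edgeR, DESeq2 1.42.0 and limma-voom fits were tested on simulated data. Promoter windows are from RefSeq, GRCm38.p6, which is mm10.

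The members and lists were chosen with earlier results of these data known. Named genes are the 10 members, both targeted genes, every called gene of a list, genes needed for a cell type check and the 8 most correlated genes; Por, Klk1b21 and Aldh1a1 were chosen after their values were seen. Alternatives were other scaling, filters, rounding, tools and thresholds, an effective length offset, a fragment length covariate, log2(TPM + 1) and log2(TPM + 0.1), and leaving out each library.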

Additional observations from a re-analysis of the deposited data

Results flagged for a closer look

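The weighted transcript length of Fdx1, a column of the files that the tests of expression do not use, was 1269, 1268 and 1290 bases in libraries labelled DKO and 1252, 1248 and 1249 bases in those labelled WT. The means were 1276 ± 12.6 and 1250 ± 2.22 bases (SD, n = 3 each) with no overlap (two-sided exact permutation p = 0.1, which is the lowest p possible with 3 libraries a group). It is listed as a difference in data outside the main measurement. Fdx1 was picked because its lengths did not overlap between groups, so this p was set by that choice and is no support. The weighted lengths of Hsd3b1 and Scarb1 also varied, with overlap between groups. Fdx1 has 2 transcripts in the files, so the value reflects their estimated mix.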

How the results depend on the processing

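No paired analysis was possible because the replicate numbers follow the order of deposition only, and nothing in the labels ties a DKO library to a WT library by litter, batch or day. The count of members called, 3, was 0 with the fragment length covariate and 0 at an adjusted p under 0.01, and ranged from 0 to 6 when 1 library was left out; the fits with 0 were those without WT replicate 2 and without WT replicate 3, in which 4 and 4 members had an unadjusted p under 0.05. Among all tested genes, 3793 of 17403 and 4326 of 17431 were also under 0.05 in these fits. The fragment length fit had 2 members under 0.05, and 545 of 17110 tested genes. It has fewer residual degrees of freedom, and its covariate does not overlap between groups. The median of the 10 genes, -0.48, ranged from -0.69 to -0.31 with 1 library left out. Over all genes the count was 1856 (984 higher, 872 lower). It was 2895 with DESeq2 (1658 higher, 1237 lower), 735 on log2(TPM + 1) (279 higher, 456 lower), 947 on log2(TPM + 0.1) (370 higher, 577 lower), 1 with the fragment length covariate, 7 at an adjusted p under 0.01 and 7 to 3029 with 1 library left out. The 13 calls in the other lists became 7 on both TPM scales, 0 with the covariate, 0 at an adjusted p under 0.01, and 0 to 25 with 1 library left out. The genes with no overlap relative to the other members, 3, numbered 2 on log2(TPM + 1) and 3 to 5 with 1 library left out. Leaving out a library cannot lower this count, because each value is computed within 1 library. Hsd17b3 turned to 0.15 with the covariate, and Cyp11a1 ranged from -0.47 to 0.0380 with 1 library left out. Relative to the other members, Cyp17a1 ranged from -0.14 to 0.11, Hsd17b3 from -0.0247 to 0.29 and Lhcgr from -0.0867 to 0.18 in those fits. Insl3 also lost its call on log2(TPM + 1) and log2(TPM + 0.1), at -0.98 on both (limma adjusted p = 0.0743 and 0.0677). The cause of these changes was not tested. The motif count of 0 for NR5A1 cores, over the 7 genes with a promoter window, was also 0 with the longer core. Lhcgr rests on 43 to 107 counts per library, the fewest of the 10 genes.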
